A study of Mus musculus with 12 samples.

Results

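The 10 genes described here were Myb, Hoxa5, Hoxa7, Hoxa9, Hoxa10, Meis1, Pbx3, Mef2c, Hmgb3 and Cbx5, found by symbol in a table of FPKM values for 23234 genes. FPKM are sequenced fragments scaled to transcript length and to the size of the library, so levels of different genes can be set side by side per length. The table covered 12 RNA-seq libraries of primary mouse acute myeloid leukaemia cells that carried NRASG12V together with the Mll-AF9 fusion, from animals of the (FVB/n X C57/BL/6J) F1 background. All cells, the vehicle group included, carried both oncogenes and were grown for 24 h in medium with serum and GM-CSF. The groups were the MEK inhibitor PD325901 at 20 µM, the mTOR inhibitor RAD001 at 26 µM, the PI3 kinase inhibitor GDC0941 at 20 µM and the vehicle DMSO, with 3 libraries each. The sources used here do not give the promoter that drives either oncogene, the number of animals behind the cells or whether replicates were separate cultures, so p-values measure the spread between these libraries, which may be technical.

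MLL fusion proteins such as MLL-AF9 hold genes of the HOXA cluster and the gene of their partner Meis1 active in leukaemic progenitors, in which normal differentiation would turn them off. HOXA proteins bind DNA together with the TALE homeodomain proteins of the MEIS and PBX families. Myb, Mef2c, Hmgb3 and Cbx5 belong to the wider set of genes kept active in leukaemias with MLL fusions. Myb encodes a transcription factor on which these leukaemias depend, Mef2c a MADS-box factor, Hmgb3 a chromatin protein of the high mobility group box family, and Cbx5 the heterochromatin protein HP1 alpha.

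The labelled cell type was checked first. Of 9 myeloid markers found under the listed symbols all 9 passed the filter described below, with Itgam (CD11b) at 226 to 832 FPKM, and Spi1, listed under its older symbol Sfpi1 and picked with its values in view, averaged 357 ± 19.7 FPKM with PD325901, 375 ± 18.7 with RAD001, 302 ± 31.3 with GDC0941 and 296 ± 9.85 with DMSO (SD, n = 3 each). B cell markers summed to at most 0.233 FPKM in any library and erythroid markers to at most 3.28 FPKM. Libraries numbered 1 stood apart in every group: Cd3e, a defining T cell gene, was listed at 0 in all 4 of them and at 0.0931 to 1.06 FPKM in the other 8. The 4 T and NK cell markers summed to between 0 and 0.158 FPKM in the replicate 1 libraries and to between 0.391 and 3.81 FPKM in the others. Over the 10305 genes tested, replicate 1 was the highest library in all 4 groups for 1061 genes (10.3%) and the lowest for 554 (5.38%).

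Members differed in how far they followed that split. Hoxa5, Meis1 and Pbx3 were highest in replicate 1 in 4 of 4 groups, at 1.45 to 2.07, 1.68 to 1.96 and 2.44 to 5.26 times the mean of replicates 2 and 3. Hoxa9 was lowest in replicate 1 in 4 of 4 groups, at 0.65 to 0.98 times. Myb, Hoxa7, Hoxa10, Mef2c, Hmgb3 and Cbx5 had no common direction in the 4 groups. Among these, Hoxa7, Mef2c, Hmgb3 and Cbx5 split by inhibitor. Their replicate 1 was above the mean of replicates 2 and 3 with RAD001 (1.74, 1.13, 1.29 and 1.18 times). It was also above with GDC0941 (1.59, 1.85, 1.40 and 1.39 times) and below with PD325901 (0.91, 0.86, 0.68 and 0.73 times). Where leaving out the replicate 1 library of every group gains or loses a call of a member, that value is given as well.

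**Figure D1:**
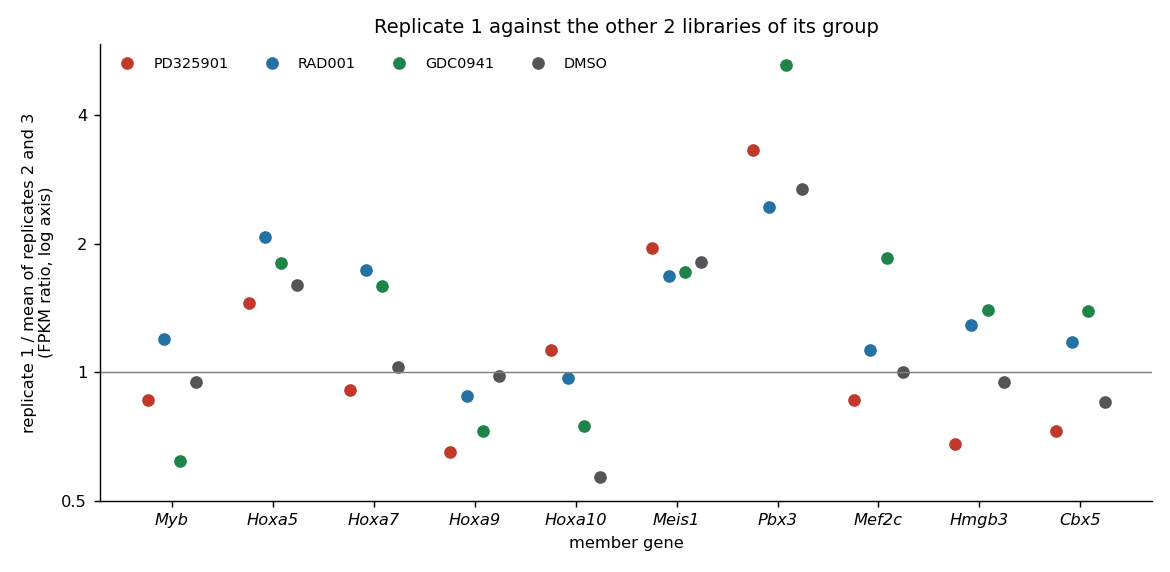
Ratio of the FPKM in replicate 1 to the mean of replicates 2 and 3 of the same group (log axis), for each of the 10 genes, with 1 point per group. Meis1, Hoxa5 and Pbx3 lie above 1 in all 4 groups and Hoxa9 below 1 in all 4.

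In DMSO the order of the levels was Mef2c (10.6 ± 0.106 FPKM), Hmgb3 (9.93 ± 0.534), Cbx5 (8.20 ± 0.768), Myb (7.65 ± 0.321), Hoxa5 (3.44 ± 1.06), Hoxa7 (3.29 ± 0.131), Meis1 (2.64 ± 1.01), Hoxa9 (2.02 ± 0.0262), Pbx3 (0.761 ± 0.479) and Hoxa10 (0.472 ± 0.183; SD, n = 3 each). The libraries of neighbours in this order overlapped for Mef2c and Hmgb3, for Cbx5 and Myb, for Hoxa5, Hoxa7, Meis1 and Hoxa9 in turn, and for Pbx3 and Hoxa10. They did not overlap for Hmgb3 and Cbx5, for Myb and Hoxa5, or for Hoxa9 and Pbx3. Among the 10305 tested genes in DMSO, Mef2c stood at the 47.8th percentile, Myb at the 38.2nd, Meis1 at the 12.5th and Hoxa9 at the 8.39th, so the homeobox genes were among the lower part of the measured range. To enter the tests a gene had to average 1 FPKM or more across the 12 libraries, which 8 of the 10 genes did. Hoxa10 (mean 0.506 FPKM) and Pbx3 (0.763 FPKM) did not.

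**Figure D2:**
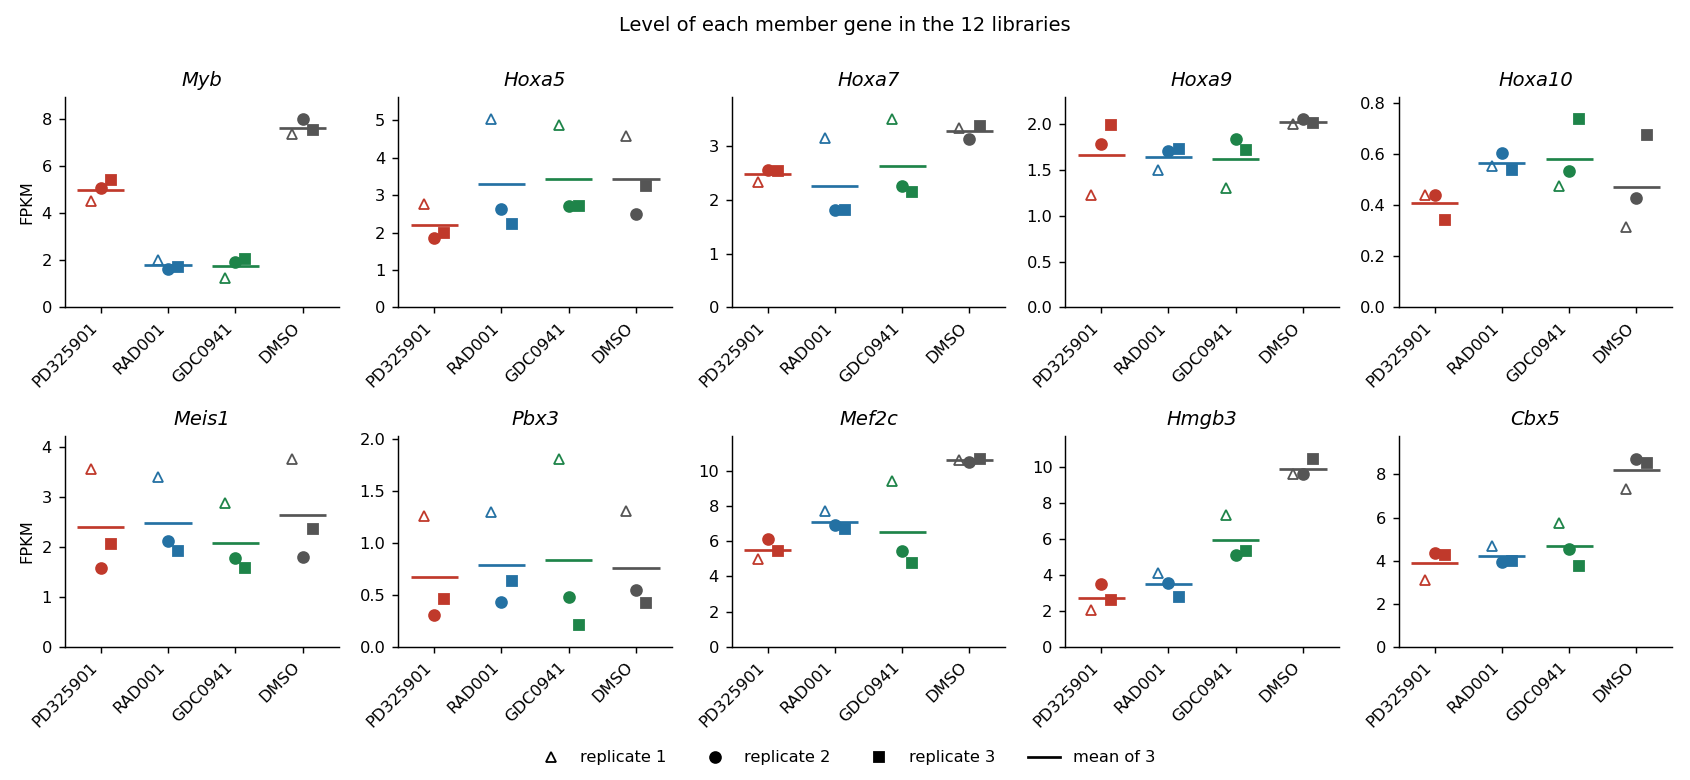
FPKM of each of the 10 genes in the 12 libraries, by group, with a symbol per replicate and a line at the mean of 3; each vertical axis starts at 0. Myb, Mef2c, Hmgb3, Cbx5 and Hoxa9 lie below all DMSO libraries with every inhibitor, and Hoxa7 does with PD325901. Of all tested genes 36.9%, 25.6% and 18.3% do so with PD325901, RAD001 and GDC0941. Hoxa5, Meis1, Pbx3 and Hoxa10 overlap with DMSO with every inhibitor.

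Myb, Mef2c, Hmgb3 and Cbx5 fell with each of the 3 inhibitors, and the homeobox members did not pass the test with any. With PD325901, 4 of 8 tested members were lower than with DMSO and 0 higher, beside 28.2% of all tested genes lower and 18.4% higher. With RAD001 the same 4 were lower and 0 higher, beside 15.9% and 15.4%, and with GDC0941 again 4 and 0, beside 12.7% and 11.6%. Lower with all 3 inhibitors were 398 of the 10305 genes (3.86%), 4 of the 8 tested members among them. The median log2 change was -0.49 with PD325901, -0.47 with RAD001 and -0.46 with GDC0941 for the 8 members, against -0.06, 0.00 and 0.02 for all tested genes. The 3 comparisons share the DMSO libraries. Tests were made with limma on log2(FPKM + 1), a scale that understates changes of low genes, with Benjamini-Hochberg adjustment over the 10305 genes and a threshold of 0.05. Of all calls with PD325901 60.6% were lower, or 47.9% after quantile normalization, under which the same 4 members stayed lower. Without the replicate 1 libraries 6, 5 and 5 members were lower with PD325901, RAD001 and GDC0941, as Hoxa7 joined in each and Hoxa5 with PD325901. Calls then rose over all 10305 genes too. The count lower went from 2909 to 3425 with PD325901 and from 1638 to 2491 with RAD001, and calls with GDC0941 also rose.

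Genes of the cell cycle moved beside these 4. Of 18 proliferation genes 16 fell with PD325901, 18 with RAD001 and 18 with GDC0941, beside 28.2%, 15.9% and 12.7% of all tested genes. The summed level of the proliferation genes was 217 to 233 FPKM with PD325901, 183 to 296 with RAD001 and 208 to 423 with GDC0941. With DMSO it was 570 to 632 FPKM. The part of the proliferation genes in the fall of the members was not tested. In these bulk samples fewer cells of a type and less RNA per cell cannot be told apart.

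**Figure D3:**
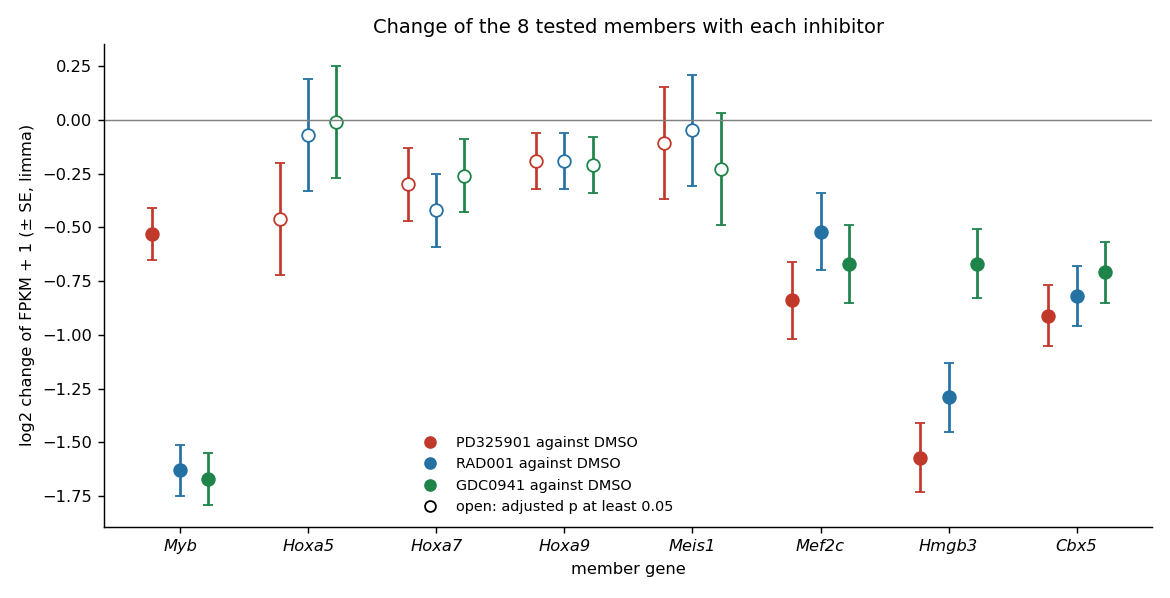
Log2 change of FPKM + 1 against DMSO for the 8 tested genes and each inhibitor, with the standard error of the limma fit; filled points have an adjusted p under 0.05. Filled points, all below 0, are those of Myb, Mef2c, Hmgb3 and Cbx5.

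The sequence just before the start of these 4 genes was read from RefSeq on GRCm38.p6, a later build than the mm9 used for the FPKM, since these were the members lower with all 3 inhibitors. Each window holds 250 bases, 5′ to 3′ on the strand of the gene, and for Mef2c and Cbx5 it is that of the first start listed. Capitals mark matches to the core motif bound by MYB, AACNG, on either strand. The windows are chr10:21160985-21161234 on the minus strand for Myb, chrX:71555667-71555916 on the plus strand for Hmgb3, chr15:103239853-103240102 on the minus strand for Cbx5 and chr13:83503784-83504033 on the plus strand for Mef2c.
Myb: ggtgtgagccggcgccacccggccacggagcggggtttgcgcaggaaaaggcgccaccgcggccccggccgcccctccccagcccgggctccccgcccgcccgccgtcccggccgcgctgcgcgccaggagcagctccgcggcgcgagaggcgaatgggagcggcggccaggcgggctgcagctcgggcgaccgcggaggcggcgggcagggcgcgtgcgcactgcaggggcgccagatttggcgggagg
Hmgb3: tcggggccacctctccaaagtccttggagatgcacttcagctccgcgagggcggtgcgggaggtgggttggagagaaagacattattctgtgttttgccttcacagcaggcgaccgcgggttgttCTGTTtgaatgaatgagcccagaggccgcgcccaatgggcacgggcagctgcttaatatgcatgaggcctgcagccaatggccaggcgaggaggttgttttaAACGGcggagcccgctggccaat
Cbx5: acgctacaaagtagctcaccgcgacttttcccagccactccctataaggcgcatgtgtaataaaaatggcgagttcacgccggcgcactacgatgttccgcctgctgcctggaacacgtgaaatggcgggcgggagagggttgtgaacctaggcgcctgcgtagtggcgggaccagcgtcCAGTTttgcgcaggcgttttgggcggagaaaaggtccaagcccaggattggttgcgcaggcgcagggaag
Mef2c: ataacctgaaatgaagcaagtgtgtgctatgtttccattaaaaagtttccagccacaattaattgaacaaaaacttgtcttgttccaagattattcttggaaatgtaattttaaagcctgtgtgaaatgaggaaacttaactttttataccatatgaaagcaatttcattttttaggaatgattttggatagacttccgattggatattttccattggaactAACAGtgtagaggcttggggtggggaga
The Myb window was 81.2% G and C, with 0 matches, and the Mef2c window 33.6%, with 1. Hmgb3 had 2 matches and Cbx5 had 1. The table held 13 windows for 9 of the 10 genes, and 11 of the 13 had a match, beside 74.2% of all 32851 windows, so a match of these few letters is common. A composite HOX and PBX motif (TGATTNAT) was in 0 of the 13 windows, beside 2.82% of all windows, and the MEF2 core motif in 0, beside 3.2%, so no matches of different motifs overlapped. A match is a run of letters and not a measured site.

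Myb fell most with RAD001 and GDC0941 and least with PD325901. It was at 4.52, 5.09 and 5.43 FPKM with PD325901, at 2.02, 1.65 and 1.71 with RAD001, at 1.24, 1.93 and 2.07 with GDC0941, and at 7.39, 8.01 and 7.54 with DMSO. No inhibitor library reached the lowest DMSO library, and the PD325901 libraries lay between those of the other inhibitors and DMSO. The means were 65.6% of that in DMSO with PD325901, 23.4% with RAD001 and 22.8% with GDC0941. The log2 change was -0.53 ± 0.12 (SE) with PD325901 (limma adjusted p = 0.00461), -1.63 ± 0.12 with RAD001 (1.32e-05) and -1.67 ± 0.12 with GDC0941 (1.85e-05). An antisense gene, Gm26577, overlaps Myb in GENCODE, and the use of strand in the counting is not given in the sources used here.

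Hmgb3 followed another order, lowest with PD325901. Its libraries were at 2.08, 3.53 and 2.59 FPKM with PD325901, at 4.12, 3.57 and 2.80 with RAD001, at 7.33, 5.12 and 5.34 with GDC0941, and at 9.61, 9.62 and 10.5 with DMSO. PD325901 and RAD001 libraries overlapped each other, those of GDC0941 lay above both, and all lay below DMSO. The means were 27.5%, 35.2% and 59.7% of the DMSO mean with PD325901, RAD001 and GDC0941. The log2 changes were -1.57 ± 0.16 with PD325901 (limma adjusted p = 3.11e-05), -1.29 ± 0.16 with RAD001 (0.000272) and -0.67 ± 0.16 with GDC0941 (0.0126). The GDC0941 call ended without GDC0941 replicate 2 (limma adjusted p = 0.0507).

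Cbx5 fell with each inhibitor, and no difference between inhibitors passed the test. It was at 3.12, 4.35 and 4.24 FPKM with PD325901, at 4.69, 3.93 and 3.98 with RAD001, at 5.73, 4.52 and 3.73 with GDC0941, and at 7.32, 8.74 and 8.53 with DMSO. The libraries of the 3 inhibitors overlapped each other and none overlapped with DMSO. The means were 47.6%, 51.2% and 56.8% of the DMSO mean with PD325901, RAD001 and GDC0941, and the log2 changes were -0.91 ± 0.14 (limma adjusted p = 0.000456), -0.82 ± 0.14 (0.00164) and -0.71 ± 0.14 (0.00488).

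Mef2c was the most abundant member in DMSO, with closely spaced libraries there. Its level was 5.0, 6.13 and 5.43 FPKM with PD325901, 7.73, 6.92 and 6.71 with RAD001, 9.42, 5.46 and 4.74 with GDC0941, and 10.6, 10.5 and 10.7 with DMSO. GDC0941 replicate 1 stood nearest to DMSO, and no library of any inhibitor overlapped with it. The log2 changes were -0.84 ± 0.18 with PD325901 (limma adjusted p = 0.00280), -0.52 ± 0.18 with RAD001 (0.0458) and -0.67 ± 0.18 with GDC0941 (0.0185). The RAD001 call ended without any 1 of the 6 libraries compared (limma adjusted p = 0.0533 to 0.122, log2 changes -0.57 to -0.48), with no filter (0.0781) and with 0.1 FPKM added (0.0506). It was kept under 8 of 16 alternatives, among them without the replicate 1 libraries (-0.57 ± 0.10, limma adjusted p = 0.00121) and with the replicate block (0.0377). The GDC0941 call ended without DMSO replicate 2 (0.0527) or 3 (0.0550), without GDC0941 replicate 2 (0.0682) or 3 (0.0663), and when those 2 groups were fitted alone (0.0726), all by limma; without the replicate 1 libraries it was -0.93 ± 0.10 (limma adjusted p = 6.83e-05).

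**Figure D4:**
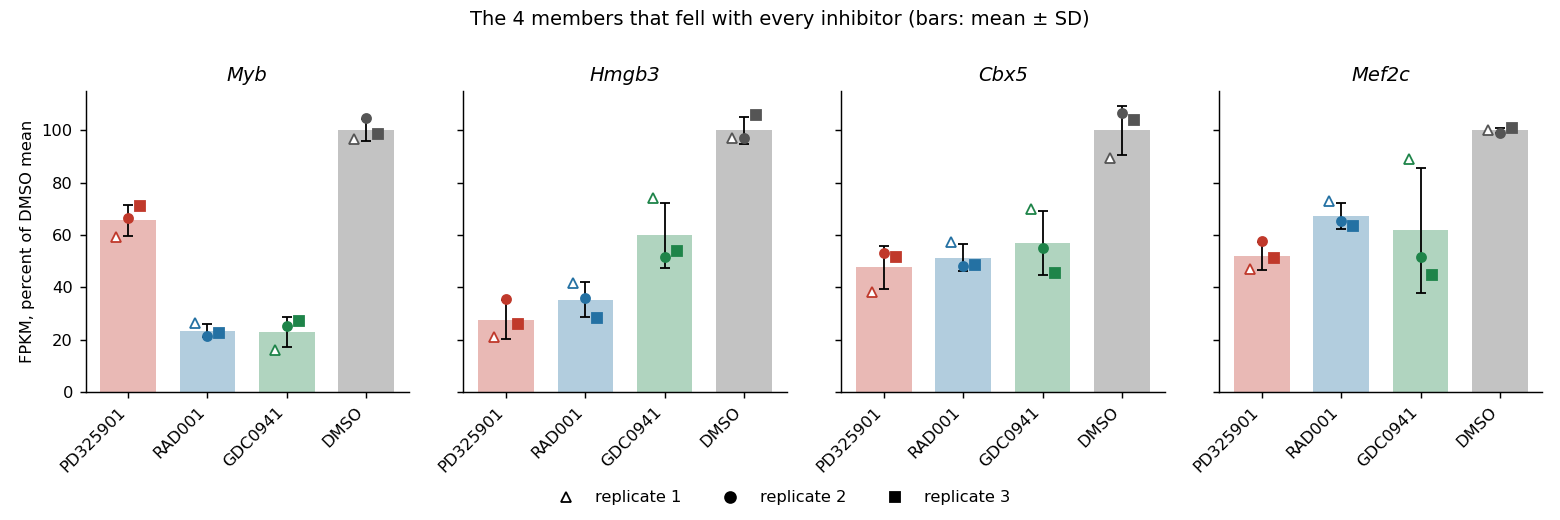
Level of Myb, Hmgb3, Cbx5 and Mef2c as a percentage of the DMSO mean, with bars at the mean, error bars of 1 SD and a symbol per replicate (n = 3). Myb stands at 65.6% with PD325901 and at 23.4% with RAD001 and 22.8% with GDC0941, whereas Hmgb3 is lowest with PD325901, at 27.5%.

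The 4 Hoxa members lie together in the HoxA cluster on chromosome 6 and encode homeodomain factors of haematopoietic progenitors. Hoxa9, a main partner of Meis1 in leukaemia, was at 1.22, 1.78 and 1.99 FPKM with PD325901, at 1.5, 1.70 and 1.73 with RAD001, at 1.30, 1.83 and 1.72 with GDC0941, and at 2.00, 2.05 and 2.01 with DMSO. Every inhibitor library lay below every DMSO library, an arrangement that 36.9%, 25.6% and 18.3% of all tested genes had with PD325901, RAD001 and GDC0941. The changes did not pass: the log2 values were -0.19 ± 0.13 with PD325901 (95% interval -0.47 to 0.09, limma adjusted p = 0.236), -0.19 ± 0.13 with RAD001 (-0.47 to 0.08, 0.266) and -0.21 ± 0.13 with GDC0941 (-0.49 to 0.06, 0.250). The RAD001 value passed with library weights (limma adjusted p = 0.0434), and after quantile normalization the 3 values were -0.06, -0.02 and -0.03.

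Hoxa7 was at 2.33, 2.56 and 2.53 FPKM with PD325901, at 3.16, 1.81 and 1.82 with RAD001, at 3.50, 2.26 and 2.14 with GDC0941, and at 3.34, 3.14 and 3.38 with DMSO. The PD325901 libraries lay below DMSO, as for 36.9% of all tested genes. Replicate 1 of RAD001 and of GDC0941 lay within or above the DMSO range. The log2 changes were -0.30 ± 0.17 with PD325901 (limma adjusted p = 0.159), -0.42 ± 0.17 with RAD001 (0.0813, or 0.0475 with the replicate number as a block) and -0.26 ± 0.17 with GDC0941 (0.296). Without the replicate 1 libraries Hoxa7 was lower with PD325901 (-0.26 ± 0.09, limma adjusted p = 0.0334), RAD001 (-0.60 ± 0.09, 0.000674) and GDC0941 (-0.41 ± 0.09, 0.00584). Without RAD001 replicate 1 alone the RAD001 change was -0.61 ± 0.15 (limma adjusted p = 0.0105). With library weights Hoxa7 was lower with all 3 inhibitors (limma adjusted p = 0.00752 with PD325901, 1.49e-05 with RAD001 and 0.0330 with GDC0941), and with PD325901 and DMSO fitted alone it was lower too (0.0146).

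Hoxa5 was at 2.77, 1.85 and 1.98 FPKM with PD325901, at 5.03, 2.63 and 2.24 with RAD001, at 4.87, 2.71 and 2.71 with GDC0941, and at 4.59, 2.50 and 3.24 with DMSO. Replicate 1 was the highest library in each group, and every inhibitor overlapped with DMSO. The log2 change with PD325901 was -0.46 ± 0.26 (limma adjusted p = 0.175); with the replicate number as a block its SE was 0.12 and it was lower (0.00958), as it was without the replicate 1 libraries (-0.40 ± 0.12, 0.0167) and with library weights (-0.42 ± 0.13, 0.0126). With RAD001 the change was -0.07 ± 0.26 (95% interval -0.65 to 0.50) and with GDC0941 -0.01 ± 0.26 (-0.59 to 0.57). Hoxa5 overlaps Hoxa3, Gm28308 and the antisense gene Hoxaas3 in GENCODE, and Hoxa7 also overlaps Hoxaas3. Hoxa9 overlaps the microRNA gene Mir196b, Pbx3 the antisense gene C79798, and Meis1 5 genes, the antisense genes Gm16140 and Gm16141 among them. The values of these members may hold reads of the overlapping genes.

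Hoxa10 lay below the filter and was at 0.439, 0.438 and 0.341 FPKM with PD325901, at 0.552, 0.603 and 0.535 with RAD001, at 0.476, 0.534 and 0.735 with GDC0941, and at 0.316, 0.427 and 0.674 with DMSO. All groups overlapped with DMSO (two-sided exact permutation p = 0.90 with PD325901, 0.50 with RAD001 and 0.40 with GDC0941). PD325901 libraries lay below those of RAD001 and of GDC0941, each with an exact permutation p of 0.1, the smallest that 3 against 3 libraries can give. How many of all genes were arranged so was not counted between inhibitors.

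Meis1 and Pbx3, the TALE partners, varied more between replicates than between groups. Meis1 was at 3.56, 1.57 and 2.06 FPKM with PD325901, at 3.40, 2.12 and 1.92 with RAD001, at 2.88, 1.78 and 1.57 with GDC0941, and at 3.76, 1.80 and 2.35 with DMSO. All groups overlapped, with replicate 1 the highest in each. The log2 changes were -0.11 ± 0.26 with PD325901 (95% interval -0.68 to 0.47, limma adjusted p = 0.768), -0.05 ± 0.26 with RAD001 (-0.63 to 0.53, 0.896) and -0.23 ± 0.26 with GDC0941 (-0.81 to 0.35, 0.567). These SEs include the shared difference of replicate 1. With the replicate number as a block the SE was 0.11, and no change passed (limma adjusted p = 0.444, 0.734 and 0.141). Pbx3 was at 1.26, 0.301 and 0.459 FPKM with PD325901, at 1.30, 0.433 and 0.631 with RAD001, at 1.81, 0.478 and 0.210 with GDC0941, and at 1.31, 0.549 and 0.424 with DMSO. Its replicate 1 libraries were all above 1 FPKM and the others all below, in every group, and exact permutation p-values against DMSO were 0.70, 0.80 and 1.0 with PD325901, RAD001 and GDC0941.

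The inhibitors were then set against each other at the doses used, which were not matched for potency. Myb was higher with PD325901 than with RAD001 (log2 difference 1.11 ± 0.12, limma adjusted p = 2.53e-05) and than with GDC0941 (1.14 ± 0.12, 2.06e-05). Against RAD001 that was 1 of 8 members higher and 0 lower, beside 20.8% of all tested genes higher and 29.4% lower, and against GDC0941 1 higher and 1 lower, beside 20.9% and 30.7%. The lower member was Hmgb3, with a log2 difference of -0.90 ± 0.16 for PD325901 minus GDC0941 (limma adjusted p = 0.000852). Between PD325901 and RAD001 the Hmgb3 difference was -0.28 (95% interval -0.64 to 0.08, limma adjusted p = 0.183). The Hoxa5 difference between PD325901 and RAD001 was -0.38 ± 0.26 (limma adjusted p = 0.248, or 0.0208 with the replicate block). Between PD325901 and GDC0941 it was -0.45 ± 0.26 (limma adjusted p = 0.181), and without the replicate 1 libraries Hoxa5 was lower with PD325901 (-0.35 ± 0.12, 0.0283). The Hoxa7 difference between PD325901 and RAD001 was 0.11 ± 0.17 (limma adjusted p = 0.604), and without the replicate 1 libraries Hoxa7 was higher with PD325901 (0.33 ± 0.09, 0.0116), as it was with library weights (0.31 ± 0.08, 0.00350).

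GDC0941 and RAD001 differed in 1 member. Hmgb3 was higher with GDC0941 (0.62 ± 0.16, limma adjusted p = 0.0252), 1 of 8 members higher and 0 lower, beside 8.09% and 9.35% of all tested genes. That call ended with no filter, under which the adjusted p rounded to the threshold, when the 2 groups were fitted alone (0.0770), and without RAD001 replicate 2 (0.0655) or 3 (0.103) or GDC0941 replicate 1 (0.0693), all by limma. Myb differed by -0.04 between GDC0941 and RAD001 (95% interval -0.30 to 0.23, limma adjusted p = 0.865). Cbx5 did not pass in any of the 3 pairs, with differences of -0.09 (PD325901 minus RAD001, 95% interval -0.41 to 0.23), -0.20 (PD325901 minus GDC0941, -0.52 to 0.12) and 0.11 (GDC0941 minus RAD001, -0.21 to 0.43). Mef2c did not pass in any pair either. Without the replicate 1 libraries it was lower with GDC0941 than with RAD001 (-0.36 ± 0.10, limma adjusted p = 0.0197), and likewise without GDC0941 replicate 1 alone (-0.41 ± 0.10, 0.0199). The Mef2c difference for PD325901 minus RAD001 was -0.32 ± 0.18. It passed with library weights (-0.25 ± 0.08, limma adjusted p = 0.00892) and when those 2 groups were fitted alone (-0.32 ± 0.10, 0.0294).

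Relatives of the members gave a mixed picture. Of 35 other HOX cluster genes 0 passed the filter and 22 were listed at 0 in all 12 libraries. Hoxa6, of the HoxA cluster, averaged 0.399 ± 0.291 FPKM with PD325901, 0.394 ± 0.216 with RAD001, 0.348 ± 0.116 with GDC0941 and 0.766 ± 0.305 with DMSO. Of 9 other TALE genes 4 were tested, and 2 were higher with PD325901, 4 with RAD001 and 1 with GDC0941, with 0 lower. Of all tested genes 18.4%, 15.4% and 11.6% were higher with these inhibitors. Meis3 rose with PD325901 (0.90 ± 0.18, limma adjusted p = 0.00217) and RAD001 (0.76 ± 0.18, 0.00902), and Pbx2 with the same inhibitors by 0.58 ± 0.10 (0.000774) and 0.29 ± 0.10 (0.0426). Tgif1, a repressor of TGF-beta responses, averaged 83.2 ± 5.23 FPKM with RAD001 and 91.0 ± 13.3 with GDC0941, against 50.0 ± 7.78 with DMSO, and rose with both (0.73 ± 0.13, limma adjusted p = 0.00184, and 0.85 ± 0.13, 0.00117). Pknox1 rose with RAD001 by 0.27 ± 0.08 (limma adjusted p = 0.0324).

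Of 9 paralogs of Myb, Mef2c, Hmgb3 and Cbx5, 7 were tested, and 4 were lower with PD325901, 3 with RAD001 and 2 with GDC0941, with 0 higher. Of all tested genes 28.2%, 15.9% and 12.7% were lower with these inhibitors. Mybl2, a cell cycle relative of Myb, fell with every inhibitor (PD325901 -1.38 ± 0.24, limma adjusted p = 0.000781; RAD001 -1.51 ± 0.24, 0.000912; GDC0941 -1.33 ± 0.24, 0.00260). Hmgb2 averaged 82.2 ± 7.59 FPKM with PD325901, 51.6 ± 10.1 with RAD001, 42 ± 5.03 with GDC0941 and 91.7 ± 4.65 with DMSO, and was higher with PD325901 than with GDC0941 (0.95 ± 0.13, limma adjusted p = 0.000122), where Hmgb3 was lower. Hmgb1 fell with PD325901 alone among the calls (-0.47 ± 0.08, limma adjusted p = 0.000681), and Cbx3, encoding HP1 gamma, with PD325901 (-0.72 ± 0.10, 0.000215) and RAD001 (-0.37 ± 0.10, 0.0174). How reads shared with pseudogene copies of the Hmgb and Cbx genes were counted is not given in the sources used here.

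Of 13 genes listed as MYB targets 7 were lower and 1 higher with PD325901, 7 lower and 2 higher with RAD001, and 7 lower and 1 higher with GDC0941. Of all tested genes 28.2%, 15.9% and 12.7% were lower and 18.4%, 15.4% and 11.6% higher with PD325901, RAD001 and GDC0941. The list medians were -1.56, -0.49 and -0.59, lowest with PD325901, with which Myb fell least. The PD325901 median is the value of Ccnb1, picked with its values in view, which is also among the proliferation genes. The genes behind the counts differed. Prtn3 and Elane encode serine proteases of primary granules. Prtn3 averaged 35.6 ± 1.5 FPKM with PD325901, 4.25 ± 3.64 with RAD001, 6.32 ± 1.35 with GDC0941 and 65.3 ± 6.04 with DMSO, and its log2 change was -0.85 ± 0.34 with PD325901 (limma adjusted p = 0.0575), -3.86 ± 0.34 with RAD001 (3.14e-05) and -3.19 ± 0.34 with GDC0941 (0.000137). Elane averaged 29.6 ± 6.77, 1.16 ± 1.55 and 2.66 ± 0.443 FPKM with PD325901, RAD001 and GDC0941, against 34.6 ± 8.60 FPKM with DMSO. Both were higher with PD325901 than with RAD001 (Prtn3 3.01 ± 0.34, limma adjusted p = 2.83e-05; Elane 4.03 ± 0.37, 7.46e-06), the direction in which Myb also differed. Mpo, myeloperoxidase, chosen after its values were seen, was likewise higher with PD325901 than with RAD001 (2.82 ± 0.32, limma adjusted p = 2.87e-05). The 13 listed genes as a whole were split. Against RAD001 5 were higher and 4 lower with PD325901, beside 20.8% and 29.4% of all tested genes. Against GDC0941 6 were higher and 4 lower with PD325901, beside 20.9% and 30.7%.

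Myc and Bcl2 moved otherwise. The MYC transcription factor gene averaged 1.11 ± 0.131 FPKM with PD325901, 35.5 ± 3.47 with RAD001, 35 ± 1.67 with GDC0941 and 22.5 ± 2.84 with DMSO, a log2 change of -3.47 ± 0.10 with PD325901 (limma adjusted p = 7.41e-09) and a rise of 0.64 ± 0.10 with RAD001 (0.00113) and 0.62 ± 0.10 with GDC0941 (0.00185). Bcl2, an inhibitor of apoptosis, was 0.666 ± 0.310 FPKM with PD325901 against 7.18 ± 0.735 with DMSO (-2.31 ± 0.19, limma adjusted p = 8.23e-06) and did not pass with RAD001 (0.27 ± 0.19) or GDC0941 (0.20 ± 0.19). Myc was lower with PD325901 than with the other inhibitors, where Myb was higher, with log2 differences of -4.11 ± 0.10 from RAD001 and -4.09 ± 0.10 from GDC0941 (limma adjusted p = 5.72e-10 and 7.93e-10).

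Of 13 genes listed as HOXA9 and MEIS1 targets 11 were tested: 4 were lower and 3 higher with PD325901, 4 lower and 0 higher with RAD001, and 5 lower and 1 higher with GDC0941. Of all tested genes 28.2%, 15.9% and 12.7% were lower and 18.4%, 15.4% and 11.6% higher with these inhibitors. The list medians were -0.13, -0.41 and -0.64. Cd34, a progenitor surface protein, fell with every inhibitor (PD325901 -2.39 ± 0.40, limma adjusted p = 0.000701; RAD001 -1.70 ± 0.40, 0.00859; GDC0941 -2.31 ± 0.40, 0.00238). Ccnd1, cyclin D1, was 3.21 ± 0.616 FPKM with PD325901, 64.4 ± 38.5 with RAD001, 94.3 ± 65.2 with GDC0941 and 161 ± 26.2 with DMSO. It fell with PD325901 (-5.27 ± 0.43, limma adjusted p = 6.7e-06) and RAD001 (-1.45 ± 0.43, 0.0250). Flt3, a receptor tyrosine kinase, rose with PD325901, to 5.35 ± 0.559 FPKM, and fell with GDC0941, to 0.841 ± 0.253 FPKM, against 2.28 ± 0.337 FPKM with DMSO (0.95 ± 0.16, limma adjusted p = 0.000691, and -0.84 ± 0.16, 0.00374).

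Of 20 other genes reported as bound or raised by MLL fusions 14 were tested, among them Myc, Bcl2 and Flt3 from the lists above. Lower and higher were 5 and 3 with PD325901, 1 and 3 with RAD001, and 4 and 3 with GDC0941, with medians of -0.15, 0.12 and -0.15 beside -0.06, 0.00 and 0.02 for all tested genes. Of all tested genes 28.2%, 15.9% and 12.7% were lower and 18.4%, 15.4% and 11.6% higher with these inhibitors. Gpr56, an adhesion receptor, fell with PD325901 (-0.36 ± 0.12, limma adjusted p = 0.0340) and GDC0941 (-0.87 ± 0.12, 0.000787). Of the proliferation genes, Mcm5, a subunit of the replicative helicase, fell with every inhibitor (PD325901 -1.68 ± 0.29, limma adjusted p = 0.000781; RAD001 -2.21 ± 0.29, 0.000324; GDC0941 -1.77 ± 0.29, 0.00163). Mki67 had values of -0.42 ± 0.23 with PD325901 (limma adjusted p = 0.160), -1.71 ± 0.23 with RAD001 (0.000386) and -1.57 ± 0.23 with GDC0941 (0.000907).

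Markers of mature myeloid cells moved beside the members too. The 8 neutrophil genes, which include Elane, summed to 34180 to 44762 FPKM with PD325901, 18920 to 23041 with RAD001, 7460 to 11481 with GDC0941 and 16469 to 17180 with DMSO, with 6 higher and 0 lower, 1 higher and 2 lower, and 1 higher and 7 lower. Most of each sum came from S100a8 and from S100a9, the latter picked with its values in view, at means of 7180 and 7353 FPKM with DMSO. The median log2 changes of the 8 genes were 1.29 with PD325901, -0.47 with RAD001 and -1.87 with GDC0941. The 8 monocyte and macrophage genes had 2 higher and 4 lower with PD325901, 3 higher and 1 lower with RAD001, and 1 higher and 0 lower with GDC0941. Myeloid markers had 4 higher and 2 lower, 5 higher and 1 lower, and 4 higher and 1 lower. Beside the counts of these lists, 18.4%, 15.4% and 11.6% of all tested genes were higher with PD325901, RAD001 and GDC0941. The shares lower were 28.2%, 15.9% and 12.7%. Of the megakaryocyte and of the stromal and endothelial markers 1 each was tested. All other markers of these 2 lists stayed at 0.573 FPKM or less in every library, so each list rests on 1 gene. Pf4, platelet factor 4, averaged 18.5 ± 13.8 FPKM with PD325901, 241 ± 32.7 with RAD001, 4.08 ± 0.590 with GDC0941 and 96.6 ± 31.0 with DMSO, and Pecam1 (CD31) 8.40 ± 1.60, 7.12 ± 0.869, 1.95 ± 0.344 and 13.7 ± 2.25 FPKM in the same groups. Pf4 fell with PD325901 and GDC0941 and rose with RAD001, and Pecam1 fell with all 3, while the T and NK, B and erythroid markers were all below the filter. Their part in the levels of the members was not tested.

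**Figure D5:**
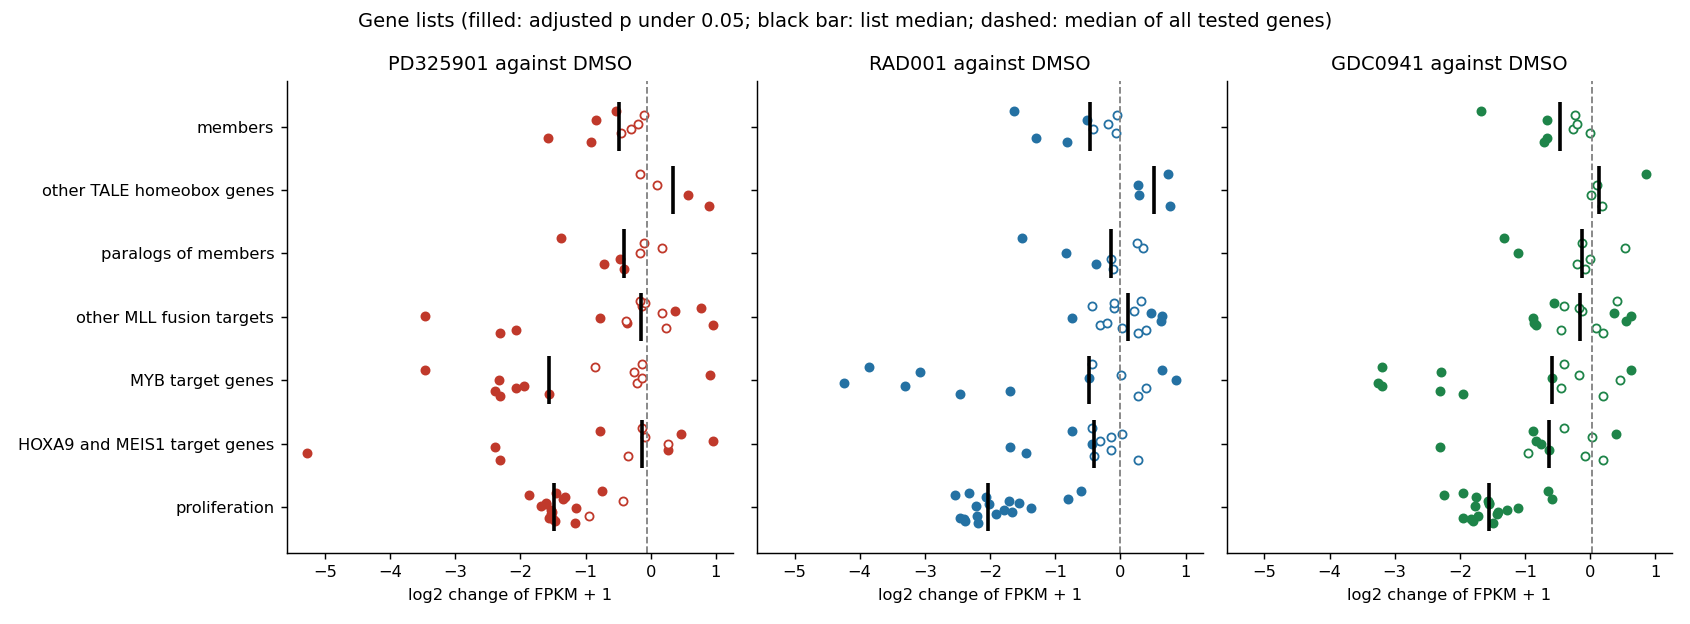
Log2 change of FPKM + 1 against DMSO for each tested gene of 7 lists, with a panel per inhibitor; filled points have a limma adjusted p under 0.05, black bars are list medians and dashed lines the median of all tested genes. Proliferation genes lie below 0 with every inhibitor, and the other lists hold filled and open points in each panel, apart from the TALE genes with RAD001, whose 4 points are all filled and above 0.

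The genes with the pattern most like that of a member were ranked by Pearson r of log2(FPKM + 1) over the 12 libraries, among genes that averaged 5 FPKM or more; this is a description, and the libraries share their groups. Nearest to Myb were Ms4a3 (r = 0.986), Prtn3 (0.958), 2700007P21Rik (0.953), Nup210 (0.948) and Spn (0.946). Ms4a3 averaged 14.8 ± 1.35 FPKM with PD325901, 3.02 ± 1.30 with RAD001, 3.09 ± 1.02 with GDC0941 and 24.3 ± 2.13 with DMSO. Nearest to Mef2c were Raver1 (0.956), Lpxn (0.956), Hk1 (0.945), Kpna2 (0.939) and Mipep (0.939). For Hoxa9 the values were lower, with Ccl8 (0.837), Reps1 (0.815), Mitd1 (0.808), Ppil4 (0.804) and Gtf2a1 (0.764). Nearest to Meis1 were Glb1 (0.914), Stfa2, Plekha2 and BC100530 (0.898 each) and Stfa1 (0.891), and of these Stfa1, Stfa2 and BC100530 had SDs as large as or larger than their means in 3 or more groups.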

How the data were processed

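Total RNA of 12 libraries was sequenced, 3 per group, and grouped by the treatment in the labels. The authors deposited 1 table of normalized FPKM values, made with TopHat2 2.0.4 and Cuffdiff on mm9 per the submitters' processing notes; the sources used here give no annotation, Cuffdiff version or scaling method. The deposited FPKM values sum to 462335 to 587581 per library. The steps between low values put relative depth at 0.846 to 1.21 of that of DMSO replicate 1, absolute depth is unknown, and no interval for counting error could be computed.

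The 10305 of 23234 genes that averaged 1 FPKM or more were analysed as log2(FPKM + 1). In limma 3.58.1 (R 4.3.3) all 12 libraries entered 1 linear model of the 4 group means, which left 8 residual degrees of freedom, and eBayes was run with a trend. Each of 6 comparisons was two-sided, with Benjamini-Hochberg adjustment over 10305 genes and a threshold of 0.05. Members below the filter were tested by a two-sided exact permutation test. The procedure was tested on simulated data. SD refers to FPKM within a group and SE to the limma fit. Promoter windows and motif counts used RefSeq sequences on GRCm38.p6, matched by symbol, and overlapping genes were read from GENCODE M21.

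The members and the gene lists, drawn from general knowledge, were chosen with earlier results of these data known. Besides the members, the text names up to 4 genes of each list by smallest adjusted p against DMSO (the 2 most abundant where none passed) and the 5 genes most like Myb, Hoxa9, Meis1 and Mef2c; for names outside this rule the text says that they were picked with their values in view. Not every gene that the rule takes is described singly.

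Labels give each group's libraries numbers from 1 to 3. To check whether these numbers pair the samples, deviations from the group mean were correlated over 10305 genes, with 0.1 as the limit. The lowest correlation of 3 pairs was 0.183 for PD325901 and 0.201 for RAD001 against DMSO. It was 0.149 for PD325901 against RAD001 and 0.309 for GDC0941 against RAD001, and all of these passed the limit. It was 0.0354 for GDC0941 against DMSO and -0.139 for PD325901 against GDC0941, which did not pass. Libraries correlated best with their own number in only 1 of 3 cases for RAD001 against DMSO and for PD325901 against RAD001. The main tests did not pair the libraries, and the replicate number entered only as a block among the alternatives. Alternatives were 0.1 or 5 FPKM added, no filter or one at 5 FPKM, median-ratio scaling, quantile normalization, library weights, the replicate block, only the 2 groups compared, and leaving out each library or all replicate 1 libraries.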

Additional observations from a re-analysis of the deposited data

How the results depend on the processing

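Of 738 log2 changes of members recomputed under the alternatives, 645 kept their direction and their side of the threshold, 19 lost a call, 22 gained one and 52 changed sign. None of those that changed sign was called. The calls of Myb and Cbx5 against DMSO, of Hmgb3 and Mef2c with PD325901 and of Hmgb3 with RAD001 were kept under every alternative in which the gene was tested. Depth in reads is unknown, and Hoxa10 and Pbx3 are too low for the fit.

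After quantile normalization the log2 change of Meis1 was 0.02 with PD325901 and 0.12 with RAD001, that of Hoxa5 0.06 with RAD001 and 0.13 with GDC0941, and the Hoxa9 difference -0.04 between PD325901 and RAD001 and -0.03 between PD325901 and GDC0941. With 0.1 FPKM added the Hoxa9 difference between PD325901 and RAD001 was -0.01. With library weights PD325901 and RAD001 differed by 0.06 in Cbx5, PD325901 and GDC0941 by 0.07 in Hoxa7, and GDC0941 and RAD001 by 0.10 in Myb and 0.02 in Hoxa9.

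The count of genes called with library weights was 6923 for RAD001 and 3849 for GDC0941 against DMSO and 3048 for GDC0941 against RAD001, beside 3224, 2503 and 1798, and fitting the last 2 groups alone gave 701. Members called between PD325901 and RAD001 were 1, or 0 of 3 tested with a filter at 5 FPKM, 3 with library weights and 2 with those 2 groups alone. Between PD325901 and GDC0941 they were 2, or 1 with the filter at 5 FPKM. Between GDC0941 and RAD001 they were 1, or 0 with no filter and 0 with those groups alone. The cause of these shifts was not tested, other than that the filter at 5 FPKM leaves fewer members.

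The replicate block called 2 members between PD325901 and RAD001 in place of 1, as Hoxa5 joined. With the block Hoxa5 was also lower with PD325901 than with GDC0941 (-0.45 ± 0.12, limma adjusted p = 0.00964), a comparison in which the numbers did not pair the libraries. The block changed no other call of a member than these and those given beside the results.

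Without the replicate 1 library of every group 4845 genes were called with RAD001 and 4321 with GDC0941 against DMSO, 3428 between GDC0941 and RAD001, and 2 members between PD325901 and RAD001 (Hoxa7 joining), 3 between PD325901 and GDC0941 (Hoxa5 joining) and 2 between GDC0941 and RAD001 (Mef2c joining). Cbx5 then differed by 0.10 between PD325901 and RAD001. PD325901 and GDC0941 differed by 0.15 in Hoxa7, 0.15 in Mef2c and 0.05 in Cbx5, and GDC0941 and RAD001 by 0.16 in Myb and 0.03 in Hoxa9.

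Leaving out 1 library at a time gave 1659 (without DMSO replicate 2) to 3140 genes called with GDC0941 and 959 (without RAD001 replicate 2; 973 without RAD001 replicate 3) to 1985 between GDC0941 and RAD001. Members called were 2 (without GDC0941 replicate 2) to 4 with GDC0941, and 0 (without RAD001 replicate 2 or 3) to 1 between GDC0941 and RAD001. Log2 changes that then changed sign against DMSO were those of Hoxa5 with RAD001 (-0.35 to 0.11) and GDC0941 (-0.23 to 0.17), and of Meis1 with PD325901 (-0.34 to 0.11) and RAD001 (-0.23 to 0.16). Between PD325901 and RAD001 they were those of Cbx5 (-0.16 to 0.03), Hoxa9 (-0.09 to 0.13) and Meis1 (-0.29 to 0.13). Between PD325901 and GDC0941 they were those of Hoxa7 (-0.14 to 0.12), Hoxa9 (-0.07 to 0.15), Mef2c (-0.34 to 0.09) and Meis1 (-0.11 to 0.30). Between GDC0941 and RAD001 they were those of Cbx5 (-0.02 to 0.23), Hoxa5 (-0.16 to 0.33), Hoxa7 (0.00 to 0.35), Hoxa9 (-0.08 to 0.07), Mef2c (-0.41 to 0.02), Meis1 (-0.36 to 0.00) and Myb (-0.12 to 0.10).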

Other observations

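Mira, a noncoding transcript of the HoxA cluster that was looked up after the values of the Hoxa members were seen, was more abundant than any Hoxa member. It was at 8.91, 8.61 and 7.15 FPKM with PD325901, at 10.7, 6.26 and 5.36 with RAD001, at 9.25, 6.41 and 6.73 with GDC0941, and at 11.9, 11.0 and 9.01 with DMSO. The PD325901 libraries lay below DMSO, as for 36.9% of all tested genes. Those of RAD001 and GDC0941 overlapped with DMSO, and replicate 1 was highest in each group. None of the changes passed, at -0.33 ± 0.21 with PD325901 (limma adjusted p = 0.213), -0.51 ± 0.21 with RAD001 (0.0872) and -0.47 ± 0.21 with GDC0941 (0.129).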
